A study of Mus musculus with 4 samples.

Results

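Early complement components and the mannose-binding lectins were followed in liver RNA of mice with polygenic obesity at day 14 of a feeding trial. Conjugated linoleic acid (CLA, a group of linoleic acid isomers) was fed in the treated group and linoleic acid (LA) in the control group. The members were 10 genes chosen by name, namely C1qa, C1qb, C1qc, C1s1, C4b, C2, Mbl1, Mbl2, Cfb and Cfi, and all 10 were found among the 16504 genes measured with a single gene symbol, each by 1 probe. A treated pool and a control pool, of 5 or 4 samples each, were hybridised to each of 4 arrays, one of them labelled with Cy5 and the other with Cy3. CLA RNA carried Cy5 on arrays 1 and 2 and Cy3 on arrays 3 and 4. The line, age and sex of the mice and the CLA isomer were not given in the labels. Nor is it known whether any pool was used on more than 1 array, so the p-values below cover the spread among 4 arrays, which may be technical, and this small number limits the precision.

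Complement is a cascade of plasma proteins that marks microbes and damaged cells for removal. In the classical pathway C1q, built of A, B and C chains, binds antibody on a surface, and the protease C1s attached to it cleaves C4 and then C2, whose fragments together form an enzyme that cleaves C3. In the lectin pathway mannose-binding lectin recognises sugars on microbes and reaches the same C4 and C2 through its own proteases. Factor B takes the place of C2 in the alternative pathway, and factor I breaks down active C3 and C4 fragments. The liver makes most of these proteins in hepatocytes, whereas C1q comes mainly from macrophages, which in the liver are the Kupffer cells.

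Promoter windows, from 250 bases before the start site to 50 after it, were found for 5 of the 10 members in RefSeq (GRCm38.p6). The windows of Mbl1 and Mbl2 are shown because these lectin genes had the largest swap components, a measure defined below, of all members. Capitals mark the best ungapped segment that the windows share on the same strand, 39 bases long with 34 identical. It lies from -45 to -7 relative to the start site in Mbl1 (chr14:41151206-41151505, plus strand) and from -79 to -41 in Mbl2 (chr19:30232678-30232977, plus strand).
Mbl1: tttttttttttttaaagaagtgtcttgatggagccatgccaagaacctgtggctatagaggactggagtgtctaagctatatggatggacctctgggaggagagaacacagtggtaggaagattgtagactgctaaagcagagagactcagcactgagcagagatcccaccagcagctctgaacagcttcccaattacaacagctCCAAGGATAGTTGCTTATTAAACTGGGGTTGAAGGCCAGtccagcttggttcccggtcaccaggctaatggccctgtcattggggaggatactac
Mbl2: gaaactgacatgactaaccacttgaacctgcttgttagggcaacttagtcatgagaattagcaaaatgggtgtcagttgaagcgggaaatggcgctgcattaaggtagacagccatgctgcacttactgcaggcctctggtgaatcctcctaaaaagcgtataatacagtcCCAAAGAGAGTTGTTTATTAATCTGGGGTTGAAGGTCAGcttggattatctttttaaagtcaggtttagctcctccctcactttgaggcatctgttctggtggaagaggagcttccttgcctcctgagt
The longest identical run in it, CTGGGGTTGAAGG, occurs on either strand in 3 of 32851 RefSeq promoter windows of this length (0.00913%), those of Mbl1, Mbl2 and Slc25a53. Between windows of any other pair of members the best shared segment was only 8 to 13 bases long.

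The windows of C1qb (chr4:136886151-136886450, minus strand) and C1qc (chr4:136892865-136893164, minus strand) are shown as the macrophage-made counterpart. These neighbouring genes had small swap components, 0.01 and 0.15, although C1qc was at -0.63 on array 3. Capitals mark the letters GAGGAA, the core recognised by PU.1, a transcription factor of macrophages, or their reverse complement.
C1qb: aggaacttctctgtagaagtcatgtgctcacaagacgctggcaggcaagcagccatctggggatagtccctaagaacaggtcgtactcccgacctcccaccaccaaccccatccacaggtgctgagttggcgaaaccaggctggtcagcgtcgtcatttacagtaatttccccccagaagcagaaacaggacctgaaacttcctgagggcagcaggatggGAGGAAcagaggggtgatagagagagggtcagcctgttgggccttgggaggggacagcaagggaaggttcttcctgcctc
C1qc: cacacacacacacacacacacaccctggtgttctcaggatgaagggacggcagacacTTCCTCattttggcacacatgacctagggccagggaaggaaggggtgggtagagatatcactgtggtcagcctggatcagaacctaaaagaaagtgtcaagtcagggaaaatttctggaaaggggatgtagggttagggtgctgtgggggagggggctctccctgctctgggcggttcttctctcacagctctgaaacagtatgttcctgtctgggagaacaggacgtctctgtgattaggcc
GAGGAA was found once in each, at -30 in C1qb and on the opposite strand at -193 in C1qc, and 28.3% of all windows hold it on either strand. It was not found in the windows of Mbl1 and Mbl2. The letters TTCNNNGAA (STAT factors, in 8.3% of windows), TTGCNNAA (C/EBP factors, 10.8%), GTTAAT (part of an HNF1 site, 7.1%) and TATAAA (13.6%) were searched on both strands too, and none of them was found in these 4 windows. No matches overlapped. A match is only a description of the letters in a window.

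The deposited values are 1 log ratio per feature and array, taken as log10 and given below as log2 ratios. The log base and the dye on top of the ratio are not stated, and if the base were 2 every log2 value below would be 3.32 times smaller. Each gene was therefore described by a pair of components. The swap component is the mean of the 4 values after the sign of arrays 3 and 4 was turned, and it is the log2 ratio of CLA over LA if the values are Cy5 over Cy3 on every array. The constant component is the plain mean of the 4 values, and it is the log2 ratio of CLA over LA if the values had already been turned to that direction. Which of these holds could not be settled, and the opposite orientation on arrays 1 and 2 would turn the sign of both. In each reading the other component would hold differences between the dyes and not between the diets. If the values had already been turned, this would be so for all calls of the swap component below. Across the 16504 genes, Pearson's r was 0.37 between arrays 1 and 2 and 0.73 between arrays 3 and 4, and it ran from -0.63 to -0.20 between arrays of opposite orientation. Log ratios hold no level, so neither the labelled tissue nor the abundance of any transcript could be checked, and fewer cells of a type cannot be told apart from less RNA per cell.

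Both mannose-binding lectins, C4b, Cfb and C1qa were negative with CLA in Cy5 and positive with CLA in Cy3, and Cfi was the other way round. These 6 of 10 members passed the test of the swap component (limma, adjusted p under 0.05 over all genes), 5 of them negative and 1 positive, against a background of 17.1% of all genes, 9.72% negative and 7.37% positive. If the values are Cy5 over Cy3, these 5 genes were thus lower with CLA, by 1.37-fold to 2.05-fold, and Cfi was 1.36-fold higher. C1qb, C1qc, C1s1 and C2 did not pass. None of the 10 members passed for the constant component, nor did any of the 16504 genes (limma, 0% called, with 2235 genes, 2 members among them, at an unadjusted p under 0.05). The median swap component was -0.29 over the members and 0.02 over all genes, and the median constant component was 0.07 and 0.00059. The count of 6 fell to 2, Mbl1 and Mbl2, without array 1 or without array 2, and to 0 without array 3 or without array 4, where no gene at all passed.

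**Figure D1:**
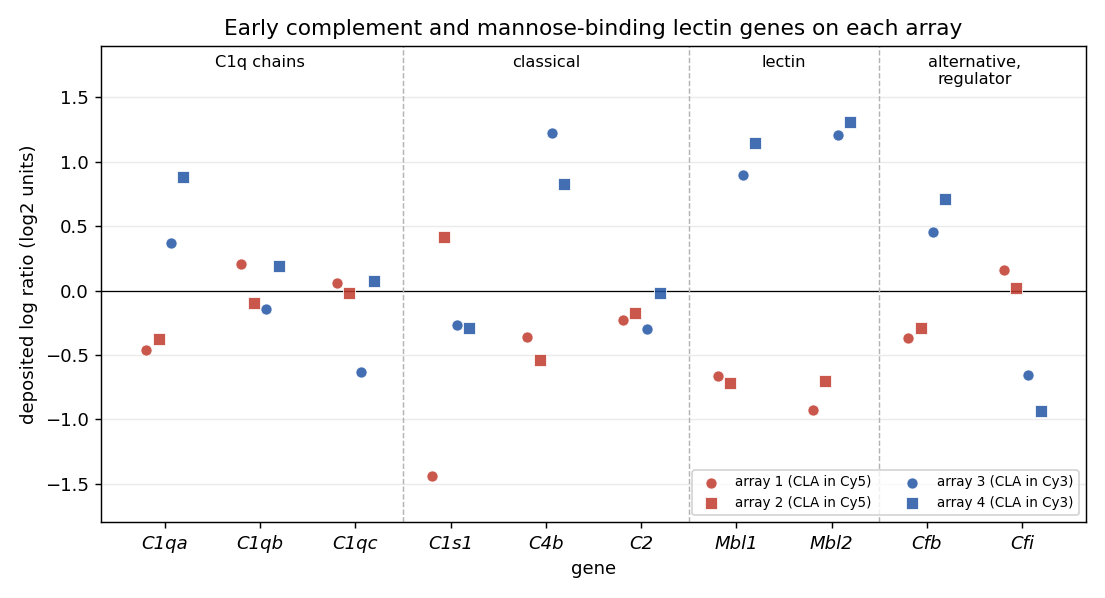
Deposited log ratio (log2 units) of each member on the 4 arrays, red with CLA in Cy5 and blue with CLA in Cy3, 1 point per array. For Mbl1, Mbl2, C4b, Cfb and C1qa both blue points lie above 0 and both red points below it, Cfi is reversed, and the colours overlap for C1qb, C1qc, C1s1 and C2.

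The orientations did not overlap for 6 of the 10 members, the same 6 that passed. Of all genes 67.2% did not overlap either, so this count by itself sets the members apart from nothing. One sign within each orientation and the opposite sign in the other was likewise seen for 6 members and for 42.9% of all genes. Only C2 had 1 sign on all 4 arrays, as did 9.64% of all genes.

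Mbl2, which encodes mannose-binding lectin C, had the largest swap component of the members. Its log2 ratios were -0.93 and -0.70 on arrays 1 and 2 but 1.21 and 1.31 on arrays 3 and 4. All 4 values lay at least 0.70 from 0, with the larger ones where CLA was in Cy3. The swap component was -1.04 ± 0.09 (SE, n = 4 arrays, limma adjusted p = 0.013), a 2.05-fold difference, and 1 sign was seen on 4 of 4 turned arrays. The constant component was 0.22 ± 0.09, with limma adjusted p = 0.37. With arrays scaled to one spread it was 0.03, so the larger size with CLA in Cy3 depended on the scaling.

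Mbl1, which encodes mannose-binding lectin A, followed Mbl2 closely. Its log2 ratios were -0.67 and -0.72 on arrays 1 and 2 but 0.90 and 1.14 on arrays 3 and 4. The orientations were well separated, and the values within each differed by less than the distance between them. The swap component was -0.86 ± 0.09 (limma adjusted p = 0.019), 1.81-fold, beside a constant component of 0.16 ± 0.09. On no array were the lectin genes more than 0.31 apart. By distance over the 4 arrays Mbl1 was number 76 of 16503 genes in likeness to Mbl2, and Mbl2 was number 213 in likeness to Mbl1. The lectin genes share the promoter segment printed above, and whether that bears on their values was not tested.

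The 3 chains of C1q, which are joined in a single protein, did not show 1 pattern. C1qa, the A chain gene, had log2 ratios of -0.46 and -0.38 on arrays 1 and 2 but 0.37 and 0.88 on arrays 3 and 4, with no overlap between the orientations. Its swap component of -0.52 ± 0.11 passed narrowly (limma adjusted p = 0.046, 1.44-fold) and its adjusted p was 0.052 once a trend over the feature number was removed from each array. C1qb, the B chain gene, was at 0.21 and -0.10 on arrays 1 and 2 but -0.14 and 0.19 on arrays 3 and 4. These values lie on both sides of 0 in each orientation, and the swap component of 0.01 ± 0.11 had a 95% interval from -0.26 to 0.29. C1qc, the C chain gene, lay at -0.63 on array 3 but at 0.06, -0.02 and 0.08 on the others in order. A single low array sets it apart from C1qb, and its swap component was 0.15 ± 0.14, with a 95% interval from -0.22 to 0.51. The difference of C1qa from C1qb was -0.67 and -0.28 on arrays 1 and 2 but 0.51 and 0.69 on arrays 3 and 4, and that of C1qa from C1qc was -0.52, -0.36, 1.00 and 0.81. C1qa thus stood apart from both other chains in the direction of its own values on all 4 arrays, a difference chosen after the values were seen and not tested. By distance over the log2 ratios of the 4 arrays C1qa was closer to Cfb, at 0.23, than to C1qb at 1.12 or C1qc at 1.43.

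C1s1, which encodes the protease of the C1 complex, varied more than any other member once arrays 3 and 4 were turned. Its log2 ratios were -1.44 and 0.41 on arrays 1 and 2 but -0.27 and -0.29 on arrays 3 and 4. The arrays with CLA in Cy5 were at opposite ends, with the other arrays between them. The swap component was -0.12 ± 0.31 with a 95% interval from -0.94 to 0.71, and without array 1 it was 0.35. A change of C1s1 within that interval was not detectable with these arrays.

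C4b, which encodes C4, the component cleaved by C1s and by the lectin pathway proteases, had log2 ratios of -0.36 and -0.54 on arrays 1 and 2 but 1.22 and 0.83 on arrays 3 and 4. Its values were larger where CLA was in Cy3, and the orientations did not overlap. The swap component was -0.74 ± 0.10 (limma adjusted p = 0.027, 1.67-fold). The constant component was 0.29 ± 0.10 with an unadjusted p of 0.043 and an adjusted p of 0.36. The mouse has a closely related paralog, C4a, not analysed here, and a C4 probe may detect both.

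C2, which is cleaved next and completes the C3-cleaving enzyme, was at -0.23 and -0.17 on arrays 1 and 2 but -0.30 and -0.02 on arrays 3 and 4. All 4 values were slightly below 0 and the orientations overlapped. Its swap component was -0.02 ± 0.09, with a 95% interval from -0.25 to 0.21, and its constant component was -0.18 ± 0.09 (limma adjusted p = 0.42).

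Cfb, which encodes factor B, is the paralog of C2 and its direct neighbour in the RefSeq annotation of GRCm38.p6. Its log2 ratios were -0.37 and -0.29 on arrays 1 and 2 but 0.46 and 0.71 on arrays 3 and 4. The orientations did not overlap, and the swap component was -0.46 ± 0.09 (limma adjusted p = 0.038, 1.37-fold). Cfb minus C2 was -0.14 and -0.12 on arrays 1 and 2 but 0.75 and 0.73 on arrays 3 and 4, so the neighbours differed mainly where CLA was in Cy3.

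Cfi, which encodes factor I, was the single member that passed with a positive swap component. Its log2 ratios were 0.16 and 0.02 on arrays 1 and 2 but -0.66 and -0.93 on arrays 3 and 4. Its values lay further from 0, and below it, on the arrays with CLA in Cy3, while those with CLA in Cy5 were close to 0. The swap component was 0.44 ± 0.09 (limma adjusted p = 0.042, 1.36-fold), and the call was lost with arrays scaled to one spread. The constant component was -0.35 ± 0.09, with the smallest unadjusted p among the members for that component, 0.013, and an adjusted p of 0.35. In the reading by the swap component Cfi was thus higher with CLA, and in the reading by the constant component its value was below 0.

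**Figure D2:**
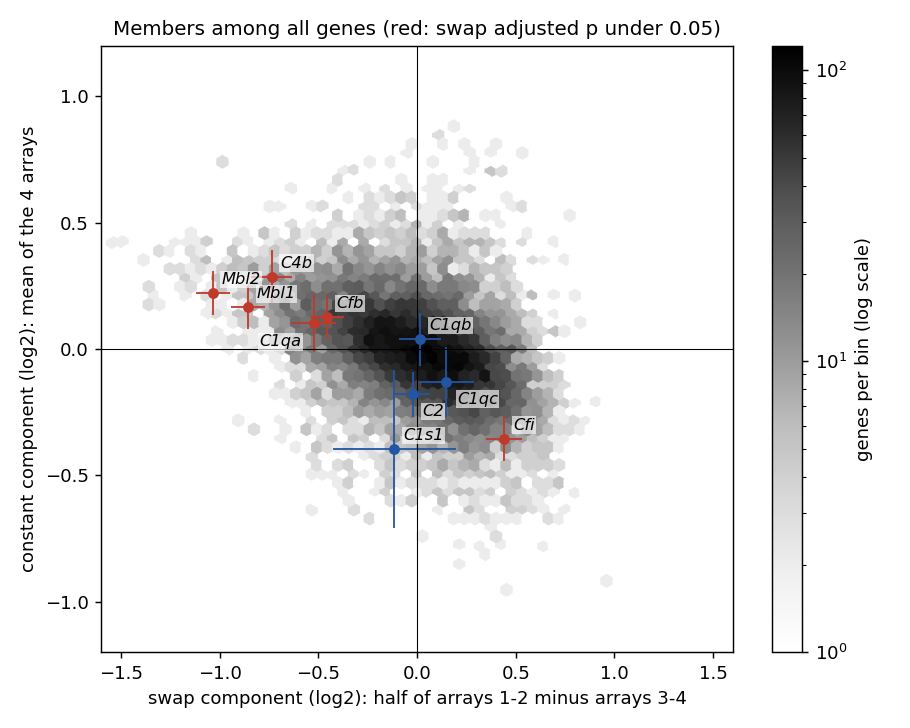
Swap component (horizontal axis) against constant component (vertical axis), both log2, with SE bars, for the members over all genes (grey bins, darker for more genes, 110 of 16504 genes outside the axes), red where the swap component passed. The 5 negative called members lie to the left, from C1qa and Cfb to Mbl2 at -1.04, Cfi lies to the right at 0.44, and no member lies more than 0.40 from 0 on the vertical axis.

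The macrophage-made C1q chains were next set against the 7 hepatocyte-made members. The mean log2 ratio of the C1q chains was -0.07, -0.17, -0.13 and 0.38 on arrays 1 to 4, and that of the hepatocyte-made members -0.55, -0.28, 0.37 and 0.39. The hepatocyte-made mean changed sign with the dye orientation, while the C1q mean was near 0 on arrays 1 to 3 and high on array 4. Single genes weighed on both means. C1s1 was at -1.44 on array 1 but 0.41 on array 2, and on array 4 C1qa was at 0.88, with C1qb at 0.19 and C1qc at 0.08. The difference, C1q minus hepatocyte-made, was 0.48 and 0.12 on arrays 1 and 2 but -0.50 and -0.01 on arrays 3 and 4, so it was near 0 on array 4. Of the hepatocyte-made members 5 of 7 passed, 4 negative and 1 positive, and of the C1q chains 1 of 3, beside 17.1% of all genes (9.72% negative and 7.37% positive). These groups were formed with results known, so no test was made between them.

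Macrophage and Kupffer cell markers were measured for 19 of 22 listed genes. Of these, 3 passed with a negative and 1 with a positive swap component and 15 did not pass, beside 17.1% of all genes called. Their median was -0.10. Marco, a scavenger receptor, was at -0.54 ± 0.11 (limma adjusted p = 0.044), Laptm5, a lysosomal protein of blood cells, at -0.46 ± 0.10 (adjusted p = 0.044) and Aif1, a calcium-binding protein, at -0.44 ± 0.09 (adjusted p = 0.044), while Fcer1g, the Fc receptor gamma chain, was at 0.59 ± 0.13 (adjusted p = 0.049). The list thus had calls in both directions. Its median log2 ratio was 0.11, -0.21, -0.12 and 0.52 on arrays 1 to 4. On array 4, where C1qa was highest, 12 of 19 markers were above 0, against 10, 7 and 8 on arrays 1 to 3. The median of 5 pancreas acinar markers, genes of a neighbouring organ, was also highest on array 4, at 1.46 against 0.04 to 0.15 on the others. So were those of sinusoidal endothelial markers, at 0.47 against 0.02 to 0.04, and of cholangiocyte markers, at 0.45 against -0.06 to 0.22. The median of stellate cell markers was highest there too, at 0.13 against -0.08 to 0.08. Medians of hepatocyte, lymphocyte, neutrophil, red cell and adipocyte markers were not highest on array 4. The part of these cell types in the member values was not tested. Without array 4 the swap component of C1qa was -0.40, and without array 3 it was -0.65.

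**Figure D3:**
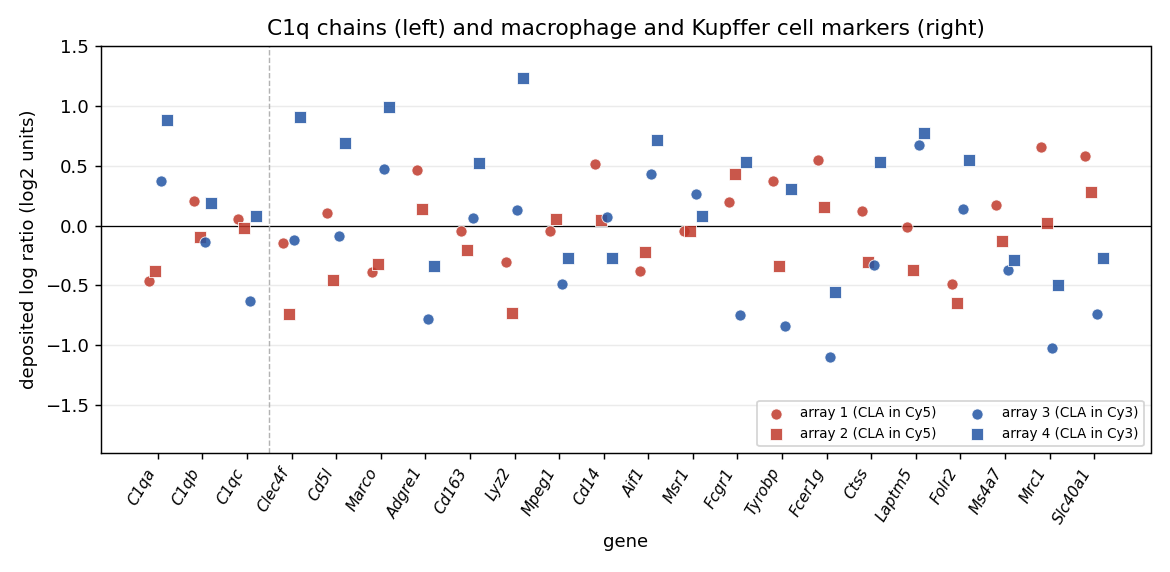
Deposited log ratio (log2 units) of the 3 C1q chains and 19 macrophage and Kupffer cell markers on the 4 arrays, red with CLA in Cy5 and blue with CLA in Cy3. C1qa and the called Marco, Aif1 and Laptm5 have both blue points above both red points, as do Clec4f, Cd163, Lyz2, Msr1 and Folr2. The called Fcer1g has them below, as do Adgre1, Mpeg1, Ms4a7, Mrc1 and Slc40a1. Of all genes 67.2% did not overlap between the orientations. C1qb and C1qc stay near 0 apart from C1qc at -0.63 on array 3.

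Hepatocyte markers, measured for 16 of 19 genes, gave 2 negative and 2 positive calls and 12 genes that did not pass. Their median swap component was -0.06. Of all genes 17.1% passed, the share to set beside every list of markers. Trf, the gene of the iron carrier transferrin, was at -0.97 ± 0.10 (limma adjusted p = 0.019) and Ass1, a urea cycle enzyme, at -0.58 ± 0.13 (adjusted p = 0.0495), while Tat, a tyrosine aminotransferase, was at 0.62 ± 0.11 (adjusted p = 0.035) and Apoh, a plasma apolipoprotein, at 0.41 ± 0.09 (adjusted p = 0.046). The median of the hepatocyte-made members was -0.46, a difference that was not tested. Sinusoidal endothelial markers gave 2 negative calls of 10, stellate cell markers 1 of 9 and adipocyte markers 1 of 5, all negative, and cholangiocyte (5), lymphocyte (9), neutrophil (7), red cell (4) and pancreas acinar markers (5 genes) gave none.

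Elsewhere in the complement system the calls went in both directions, beside 17.1% of all genes called. Of 15 other early and alternative components 10 were measured, of which 2 passed with a negative and 1 with a positive swap component and 7 did not pass, with a median of -0.13. C1rl, which encodes a relative of the C1r protease, was at -0.57 and -0.25 on arrays 1 and 2 but 1.01 and 1.23 on arrays 3 and 4, a swap component of -0.76 ± 0.10 (limma adjusted p = 0.025). Fcnb, a ficolin, which also recognises sugars, was at -0.36 ± 0.08 (adjusted p = 0.045). Colec10, a collectin of the same family as the mannose-binding lectins, went the opposite way, at 0.44 and 0.18 on arrays 1 and 2 but -1.10 and -0.63 on arrays 3 and 4, for a swap component of 0.59 ± 0.12 (adjusted p = 0.041). The lectin pathway proteases Masp1 and Masp2 did not pass, at 0.31 ± 0.08 and 0.04 ± 0.08 (adjusted p = 0.068 and 0.72).

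Regulators and receptors of complement were measured for 21 of 26 genes. Among them 2 passed as negative, 1 as positive and 18 did not pass, beside 17.1% of all genes called. The median swap component was 0.02. Itgam, a chain of complement receptor CR3 on phagocytes, was at -0.87 ± 0.10 (limma adjusted p = 0.023). Serping1, the inhibitor of C1r and C1s, was at -0.43 ± 0.09 (adjusted p = 0.044), and Cr1l, a membrane regulator that protects mouse cells from complement, at 0.39 ± 0.09 (adjusted p = 0.048). Of 7 terminal components, which build the membrane attack complex, 2 passed as negative and 5 did not pass, with a median of -0.17. These were C8g at -0.69 ± 0.12 (adjusted p = 0.033) and C9 at -0.68 ± 0.15 (adjusted p = 0.046). No gene of these 3 lists passed for the constant component.

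**Figure D4:**
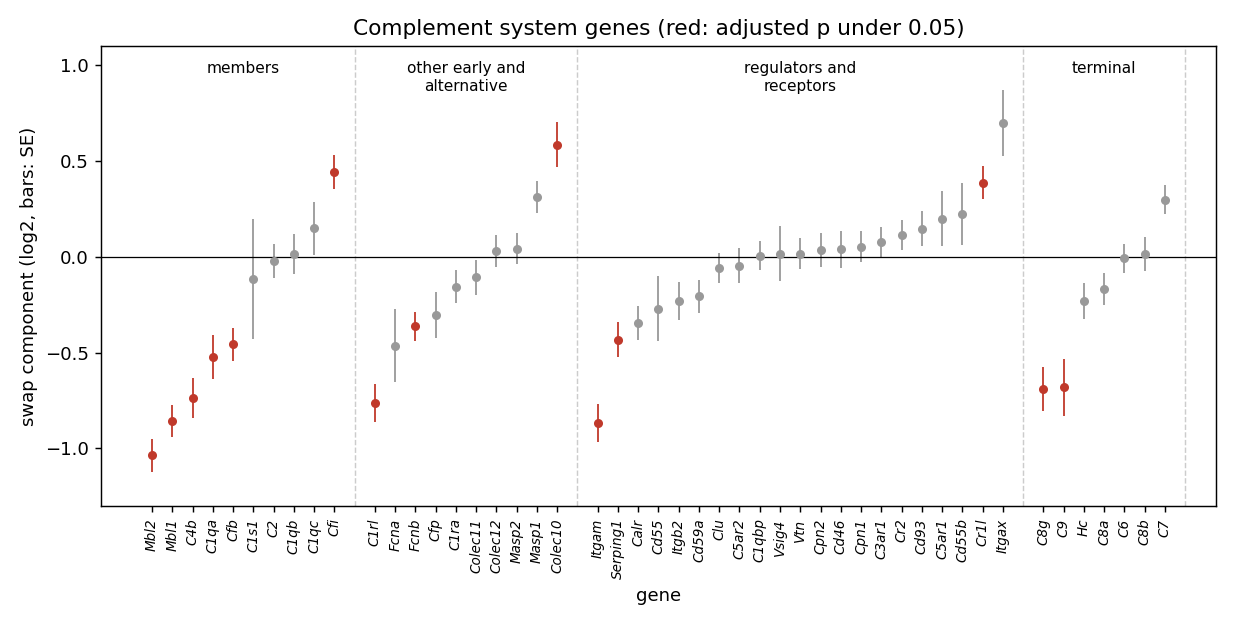
Swap component (log2, vertical axis) with SE bars for the members and the other measured complement genes (horizontal axis, sorted within each list), red where the adjusted p was under 0.05. Calls were 6 of 10 members, 3 of 10 other early and alternative components, 3 of 21 regulators and receptors and 2 of 7 terminal components, most of them below 0, beside 17.1% of all 16504 genes, whose calls were also mostly below 0 (1604 of 2820).

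Among 30 inducers and transcription factors of complement genes in the liver, 26 were measured. Of these, 4 passed as negative, 2 as positive and 20 did not pass, beside 17.1% of all genes called. The median swap component was -0.04. Cebpa, a transcription factor of hepatocytes, was at -0.96 ± 0.10 (limma adjusted p = 0.021) and Jak2, a kinase of cytokine receptors, at -0.77 ± 0.12 (adjusted p = 0.029). Both chains of the interleukin-6 receptor passed, Il6ra at -0.56 ± 0.09 and Il6st at -0.44 ± 0.09 (adjusted p = 0.029 and 0.039). Il6 itself, the main inducer of the acute phase, was at 0.73 ± 0.12 (adjusted p = 0.031), with 0.14 and -0.22 on arrays 1 and 2 but -1.29 and -1.70 on arrays 3 and 4. Cebpb, a C/EBP factor induced in inflammation, was at 0.48 ± 0.08 (adjusted p = 0.034). The swap components of ligand and receptor chains thus had opposite signs, although all 3 genes were below 0 on array 2, and the constant component of Il6 was larger in size than its swap component, at -0.77 ± 0.12 (unadjusted p = 0.0016, limma adjusted p = 0.35).

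The genes most alike in pattern were found by Euclidean distance over the log2 ratios of the 4 arrays, among 16503 genes (16501 for the C1q mean). Closest to Mbl2 were Apof, the gene of apolipoprotein F, at a distance of 0.11, then Tomm40, Srprb, Tmem213 and Peli2, up to 0.25. Closest to C4b were Gpd1, a glycerol-3-phosphate dehydrogenase, at 0.16, then Nudt3, Sgsm1, Smagp and Palm. Closest to Cfb were Dnah9 at 0.07, then Aif1, Ap2m1, Grhpr and Klhdc9. The mean of the C1q chains was closest to Ep400 at 0.08, then Rpl10a, Rhot1, Abcg5 and Emilin1. No member was among the 5 nearest genes of another, and Mbl1 in likeness to Mbl2, as number 76, and C1qa in likeness to Cfb, as number 231, were the nearest members to these references, followed by Mbl1 in likeness to C4b, as number 296. With 4 arrays many genes lie this close, so the order is a description only.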

How the data were processed

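Liver RNA was measured on 4 arrays with 2 colours, and the deposited table holds 1 log ratio for each of 22393 features per array. The authors' deposited values are taken as log10 ratios, from -3.17 to 3.28 with array medians of 0.0010, -0.0023, -0.0020 and -0.0011; the log base, direction, centring and scaling of these values are not stated. They were multiplied by 3.32 to give log2 ratios. Scanner intensities were not used here, so signal over background is unknown.

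Genes were named from the platform annotation: 18218 features had 1 symbol, 16 several and 4159 none. RefSeq genes of GRCm38.p6 matched 18175 of the named features and changed 0 symbols. Replicate spots (accessions with at least 8 features) and then probes of a gene were averaged, giving 16504 genes.

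Each gene was fitted with limma 3.58.1 in R 4.3.3 (lmFit, eBayes), with a coefficient that changes sign with the dye orientation (swap component) and a constant one, 2 residual and 2.66 prior degrees of freedom. P-values were adjusted over all genes by Benjamini and Hochberg's method, at 0.05, and the script was tested on simulated data. Named genes are the members, list genes that passed, Masp1 and Masp2 (chosen after their values were seen), and the 5 nearest genes of 4 references. Members and lists were chosen with earlier results of these data known. Alternatives are given in the closing section. Plots were made in Python 3.11.15 with matplotlib 3.10.9.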

Additional observations from a re-analysis of the deposited data

Results flagged for a closer look

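C1s1 on array 1, at a log2 ratio of -1.44, stood far from the other arrays once all were turned to one dye orientation, with its gap to the nearest at 0.92 of the whole range against a limit of 0.829 for 4 samples. C1qc on array 3, at -0.63, stood apart from the other arrays as deposited, with a gap of 0.86 of the range. These were 2 of 20 sets of 4 values examined, and chance alone marks about 1 in 20.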

How the results depend on the processing

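The swap components of the 6 called members kept their sign in all alternatives. For most alternatives this was fixed in advance. Each of these members had 1 sign on all turned arrays, so leaving out, averaging or scaling arrays could not reverse it. Their calls depended on the fit. With only the swap coefficient 2 members (Mbl1 and Mbl2) and 1202 genes passed, against 6 and 2820. With arrays 1 and 3 and arrays 2 and 4 averaged it was 0 members and 125 genes. With arrays 1 and 4 and arrays 2 and 3 averaged it was 3 members (C4b, Mbl1 and Mbl2) and 1950 genes. These fits have fewer values or lack a term. Leaving out 1 array gave 0 to 2 members and 0 to 735 genes (4015 to 5643 at an unadjusted p under 0.05). An adjusted p under 0.10 gave 5380 genes and the same 6 members, and under 0.01 gave 111 genes and 0 members. Scaled arrays lost Cfi and removal of the trend over the feature number lost C1qa, with 5 members left in each. All genes called were 1955 and 3248 in these settings. With scaled arrays the constant component was 0.030 for Mbl2, 0.0091 for Mbl1, 0.0011 for C1qa and 0.041 for Cfb. Unscaled it was 0.22, 0.16, 0.10 and 0.13. For C4b and Cfi it was 0.17 and -0.28 with scaled arrays, against 0.29 and -0.35. How much larger the values were with CLA in Cy3 thus depended on the scaling. The constant component called 0 genes in every alternative run (523 to 3178 at an unadjusted p under 0.05).

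C1qb, C1qc, C1s1 and C2, which did not pass for the swap component, changed sign in it when 1 array was left out. The swap component then ran from -0.069 to 0.097 for C1qb, from -0.029 to 0.33 for C1qc, from -0.58 to 0.35 for C1s1 and from -0.090 to 0.048 for C2. The constant component, for which no member passed, changed sign for C1qa (from -0.025 to 0.23) and C1qb (from -0.043 to 0.12). It did so too for C1qc (from -0.31 to 0.047) and C1s1 (from -0.86 to 0.067). For C4b, C2, Mbl1, Mbl2, Cfb and Cfi it kept its sign whichever array was left out. With the trend over the feature number removed, the constant component of C1qc was 0.0084. The cause of these changes was not tested. The difference of the C1q chains from the hepatocyte-made members could move only with 1 array left out, with scaled arrays or with the trend removed. With scaled arrays and with the trend removed it moved by less than its spread between arrays. With 1 array left out the move is smaller than that spread whatever the values, so it is no check. The other alternatives leave this difference unchanged by construction. Its swap component of 0.28 ran from 0.15 (without array 3) to 0.40 (without array 4) when 1 array was left out, and its constant component of 0.023 turned negative without array 1 (-0.069) and without array 4 (-0.10), so the latter has no settled direction.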
